A study of Mus musculus with 17 samples.

Results

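Malat1, Neat1, Meg3, Rian, Mirg, Miat, Snhg11 and Kcnq1ot1 are long noncoding RNAs that stay largely in the nucleus of the cells that make them. They were chosen by symbol, and all 8 were found among the 24498 gene symbols of the count table, with at least 1 read in each of 17 libraries. The libraries were made from poly(A) RNA of mouse dorsal hippocampus, in slices that held CA1, CA2, CA3 and the dentate gyrus. Wild-type mice (WT) were compared with mice constitutively lacking Acss2 (labelled ACSS2KO, here KO), which turns acetate into acetyl-CoA, and both lines came from homozygous crosses of F1 mice from heterozygous parents. At 6 months of age they had received either phosphate-buffered saline (PBS) or tau taken from brain tissue of Alzheimer's disease (Tau), injected into the dorsal hippocampus. With n = 3 each there were 4 male groups (WT PBS, WT Tau, KO PBS and KO Tau) and female KO Tau, while female WT Tau had n = 2. No female PBS group was present. A library is called here by its number in the labels, which give no batch.

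A long noncoding RNA acts as RNA, often at or near the gene it comes from or as the scaffold of a nuclear body. Malat1 collects in nuclear speckles, which hold splicing factors, and Neat1 is the scaffold of the neighbouring paraspeckles. Meg3, Rian and Mirg are made in succession from the maternal copy of the imprinted Dlk1-Dio3 domain and carry small nucleolar RNAs and microRNAs in their length. Kcnq1ot1 is made from the paternal copy of the Kcnq1 domain, antisense to Kcnq1, and silences neighbouring genes on that copy. Miat, also called Gomafu, is a neuronal RNA with repeats of the motif that the splicing factor SF1 binds. Snhg11 hosts small nucleolar RNAs and is abundant in neurons.

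The genes lie at 5 places in GRCm38, as annotated by GENCODE. Malat1 (ENSMUSG00000092341.3) lay at chr19:5795690-5802672 and Neat1 (ENSMUSG00000092274.3) at chr19:5824708-5845478, both on the minus strand and 22.04 kb apart. Meg3 (ENSMUSG00000021268.17, chr12:109541001-109571726), Rian (ENSMUSG00000097451.10, chr12:109603940-109661716) and Mirg (ENSMUSG00000097391.8, chr12:109729764-109749460) followed each other on the plus strand within 208 kb. Within their spans RefSeq placed 1 microRNA hairpin in Meg3, 3 in Rian and 14 in Mirg, on the same strand. Miat (ENSMUSG00000097767.8) lay at chr5:112213228-112229395 on the minus strand. Snhg11 (ENSMUSG00000044349.15, which GENCODE types as protein-coding) lay at chr2:158375638-158386145 on the plus strand, 2.79 Mb from Acss2 on the same chromosome. Kcnq1ot1 (ENSMUSG00000101609.2) was a single exon of 93092 bases at chr7:143203458-143296549 on the minus strand, where it overlaps exons of Kcnq1 on the opposite strand. The library kit named in the labels does not mark strand, while the methods describe counting in reverse-stranded mode. Whether reads from the bases that both genes cover were told apart is therefore not known. Kcnq1 itself was at 0.0548 to 0.835 CPM (the count scaled to the library total).

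Selection on poly(A) is the step that decides which of these RNAs enter a library, so their 3′ ends and internal runs of A are shown first. The mature 3′ end of Malat1, and that of the long form of Neat1, is not made by polyadenylation. It is cut by RNase P ahead of a tRNA-like RNA, and a triple helix of U-rich stretches and an A-rich tract protects it. Capitals mark the stretches of 11 or more bases that the 2 genes share, in transcript orientation, from GENCODE transcripts Malat1-201 (chr19:5795922-5796075) and Neat1-201 (chr19:5824708-5824807).
Malat1 3′ region: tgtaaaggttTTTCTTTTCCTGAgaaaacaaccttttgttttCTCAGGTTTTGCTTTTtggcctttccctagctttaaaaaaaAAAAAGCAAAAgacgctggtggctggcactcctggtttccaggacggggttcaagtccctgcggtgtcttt
Neat1 3′ end: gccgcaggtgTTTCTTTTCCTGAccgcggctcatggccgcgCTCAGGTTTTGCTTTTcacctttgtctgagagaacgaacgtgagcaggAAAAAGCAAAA

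Of the 24101 genes of the table with a GENCODE transcript, 2 held all 3 capital stretches, Malat1 and Neat1. The middle stretch of 16 bases occurred in 2 genes, the first of 13 bases in 19, and the last of 11 bases in 284. In Malat1-201 the shared A-rich stretch was part of a run of 12 A, and 12.0% of genes had a run at least that long. In Neat1 the longest run held 7 A, and 46.0% of genes matched or exceeded it.

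Internal runs of A of Kcnq1ot1 and Rian are shown because a run of A within a transcript can be bound by oligo(dT). Capitals mark the run. The stretch of Kcnq1ot1 lay at chr7:143226925-143227005 and that of Rian at chr12:109652209-109652263.
Kcnq1ot1: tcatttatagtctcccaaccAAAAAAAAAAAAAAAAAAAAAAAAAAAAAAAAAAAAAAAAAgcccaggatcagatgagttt
Rian: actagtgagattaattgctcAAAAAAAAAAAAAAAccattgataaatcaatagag

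The run of 41 A in Kcnq1ot1 was matched or exceeded in 14 of 24101 genes, itself included (0.0581%). The run of 15 A in Rian was reached by 5.98% of genes. Meg3, whose run is not shown, held 16 A, which 4.71% of genes matched or exceeded. The longest runs of Snhg11, Mirg and Miat held 9, 5 and 4 A. Whether any of these runs was bound during selection was not tested.

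The repeats that set Miat apart are shown next, with TACTAAC in capitals, in transcript orientation from the last exon of Miat-205. The first stretch lay at chr5:112217304-112217465 and the second at chr5:112216747-112216817.
Miat, first 3 copies: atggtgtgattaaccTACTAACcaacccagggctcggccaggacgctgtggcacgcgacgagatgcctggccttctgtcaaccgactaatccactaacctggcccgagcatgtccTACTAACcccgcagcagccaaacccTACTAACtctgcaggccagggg
Miat, last 3 copies: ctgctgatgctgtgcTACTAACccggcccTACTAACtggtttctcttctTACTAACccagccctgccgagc

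Miat held 6 copies of TACTAAC on the transcript strand, a number that 3 of 24101 genes reached. Kcnq1ot1 held 4 copies over its much greater length, Neat1 and Rian 1 each, and the remaining members 0. At least 1 copy was present in 9.36% of genes.

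The promoters of Meg3, Miat and Snhg11 are given from RefSeq (GRCm38.p6), from 250 bases before to 50 after the start. They lay at chr12:109540746-109541045 (plus strand), chr5:112228899-112229198 (minus strand) and chr2:158375463-158375762 (plus strand). These genes were picked after their levels were seen, with Pearson r of 0.95 (Meg3 and Snhg11), 0.88 (Meg3 and Miat) and 0.86 (Miat and Snhg11). Malat1 and Miat had 0.90. The choice depended on male KO Tau library 711. Without it Meg3 and Mirg (0.87) and Mirg and Snhg11 (0.84) were closer than Meg3 and Miat (0.80) or Miat and Snhg11 (0.78). Capitals mark TGACG (the core of a cyclic AMP response element), the box CCAAT, the GC box GGGCGG and the TATA box TATAAA on either strand, where sites may overlap.
Meg3: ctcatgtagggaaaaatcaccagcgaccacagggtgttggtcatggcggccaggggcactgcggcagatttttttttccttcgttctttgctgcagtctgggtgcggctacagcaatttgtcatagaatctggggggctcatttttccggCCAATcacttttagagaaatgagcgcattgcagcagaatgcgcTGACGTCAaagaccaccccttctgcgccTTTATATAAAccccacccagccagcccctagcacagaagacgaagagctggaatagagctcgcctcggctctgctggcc
Miat: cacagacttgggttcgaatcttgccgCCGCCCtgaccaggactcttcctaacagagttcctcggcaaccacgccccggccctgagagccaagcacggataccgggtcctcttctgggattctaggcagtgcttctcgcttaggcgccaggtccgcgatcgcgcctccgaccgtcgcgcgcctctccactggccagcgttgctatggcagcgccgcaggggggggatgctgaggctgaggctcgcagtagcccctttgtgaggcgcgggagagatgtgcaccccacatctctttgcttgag
Snhg11: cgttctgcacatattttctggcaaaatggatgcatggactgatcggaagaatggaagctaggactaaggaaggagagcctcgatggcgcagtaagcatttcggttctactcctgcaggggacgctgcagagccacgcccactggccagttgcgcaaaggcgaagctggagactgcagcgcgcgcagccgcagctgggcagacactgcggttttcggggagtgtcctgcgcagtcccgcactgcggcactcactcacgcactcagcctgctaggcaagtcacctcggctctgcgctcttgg

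The first Meg3 promoter held TGACG at 2 positions (1 on each strand) together with 1 CCAAT and 2 matches to TATAAA. Miat held 1 GGGCGG, and Snhg11 held none of the 4 motifs. Among all 32851 promoters of that table, TGACG was present in 20.8%, CCAAT in 37.4%, GGGCGG in 35.7% and TATAAA in 13.6%. None of the 4 motifs was present in more than 1 of the 3 promoters. The Kcnq1ot1 promoter held 3 matches to CCAAT and 1 to TGACG, and the Malat1 promoter 3 to TGACG.

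Total counts ran from 14183131 to 22463635 per library, so 3 counts, the limit that a count of 0 allows, stood at 0.134 to 0.212 CPM. These limits cover counting error only. As a check of the genotype, Acss2 did not exceed 8.81 CPM in any of 9 KO libraries (lowest 3.07), and the 8 WT libraries held 44.0 to 54.6 CPM. Male KO Tau library 711 stood apart from the other 11 male libraries and near the 5 female ones on several lists. Ribosomal protein messages (79 genes) summed to 14500 CPM in 711, to 8074 to 10579 in the other males and to 11895 to 17691 in the females. Astrocyte markers (9 genes) summed to 8187 CPM in 711, 4416 to 5257 in the other males and 8764 to 9961 in the females. Neuron markers (10 genes) went the other way, with 7690, 9917 to 13056 and 8063 to 9278 CPM. No list gene of astrocytes or neurons was at 0.

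A pair of lists bears on the preparation of the RNA. Small structured RNAs without a poly(A) tail (7 genes in the table, such as Rmrp and Terc) summed to 0.258 to 1.55 CPM over all libraries. Messages of replication-dependent histones (31 genes), which also end without a tail, summed to 36.3 to 61.8 CPM in the 11 males, 71.2 CPM in 711 and 67.5 to 115 CPM in the females. Results that moved without 711 are given below with and without it. The genes most like each member were computed with it only. In bulk tissue, fewer cells of a type and less RNA per cell cannot be told apart.

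Per kilobase of annotated exon, Snhg11 was the most abundant of the 8, with a median of 102 CPM per kb over the 17 libraries. Malat1 (85.3 CPM per kb) and Meg3 (83.9) came close to each other, and their ranges of 64.3 to 154 and 46.4 to 147 overlapped widely. Miat (33.5), Rian (21.5) and Neat1 (8.28) followed. Mirg at 1.01 and Kcnq1ot1 at 0.137 CPM per kb were the lowest. In total reads the 8 RNAs took 0.243% to 0.650% of a library. By mean CPM Meg3 exceeded 99.9% of all symbols, Malat1 99.3% and Neat1 95.9%, whereas Mirg exceeded 55.5% and Kcnq1ot1 61.5%. The exon lengths join all annotated isoforms, so a gene with a rare long isoform reads lower on this scale. For Neat1 this length was 20771 bases, that of the long form, whose mature 3′ end is not made by polyadenylation. The place of Neat1 among the 8 on this scale is therefore uncertain.

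The plot of levels by library shows the pattern that recurred in most of the 8 RNAs. Library 711 was the highest of the 12 male libraries in 6 of them, and 791 was the highest male WT PBS library in all 8. KO PBS library 751 was the lowest of all 17 in 4 (Meg3, Rian, Mirg and Snhg11). Overlap between groups is given below for each RNA. The share of all genes that separate in the same way was not counted, so a lack of overlap does not set these RNAs apart.

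**Figure D1:**
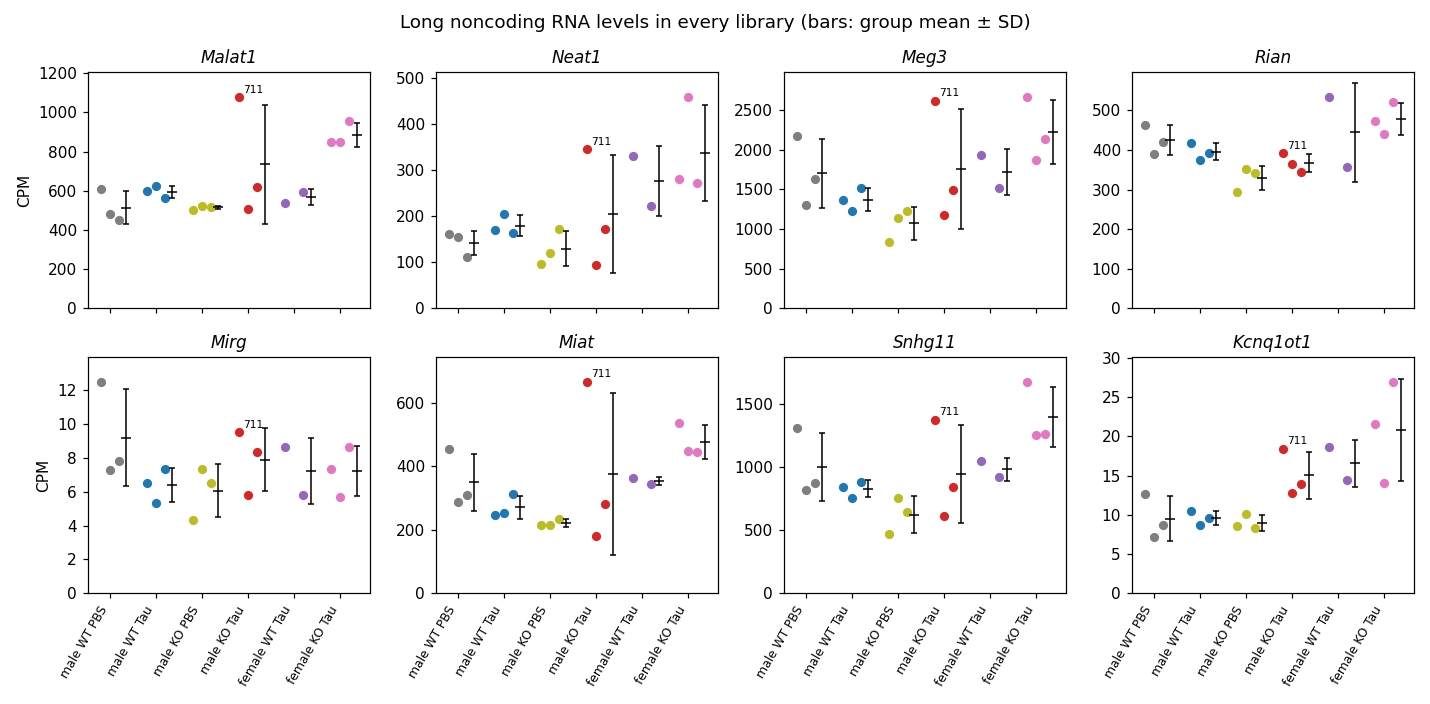
CPM of each long noncoding RNA (y axis, linear, from 0) in each library of the 6 groups (x axis); points are libraries and the bars beside them are the group mean ± SD (n = 3, or 2 for female WT Tau). Male KO Tau library 711 lies above the other 2 male KO Tau libraries in all 8 panels, and the female points of Neat1 and Kcnq1ot1 lie above every male point but 711.

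Malat1 stood at 608, 482 and 449 CPM in male WT PBS and at 601, 623 and 561 in male WT Tau. The male KO PBS libraries held 505, 522 and 519 CPM. Male KO Tau libraries held 1078, 505 and 621 CPM, female WT Tau 538 and 595, and female KO Tau 849, 849 and 958. All female KO Tau libraries were above both female WT Tau libraries, while the male groups overlapped because 712 and 713 sat among the WT values. Means rose from 513 ± 83.8 CPM in male WT PBS and 515 ± 9.30 in male KO PBS to 567 ± 40.6 in female WT Tau, 595 ± 31.4 in male WT Tau, 735 ± 303 in male KO Tau and 886 ± 63.0 in female KO Tau (SD). In that order the neighbours overlapped, except for male KO PBS and female WT Tau.

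Neat1 stood at 160, 154 and 111 CPM in male WT PBS, then 171, 204.9 and 163 for male WT Tau, whereas KO PBS males had 96.3, 121 and 172. Male KO Tau libraries held 345, 95.2 and 172 CPM, so this group contained both the highest and the lowest male value. Female WT Tau libraries held 330 and 222 CPM and female KO Tau 281, 458 and 272. All 5 female values were above the other 11 males. Between female and male Tau libraries 23.8% of all genes tested were called. The group means ran from 130 ± 38.6 CPM in male KO PBS to 337 ± 105 in female KO Tau (SD).

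Meg3 stood at 2165, 1301 and 1633 CPM in male WT PBS, with 1369, 1221 and 1519 after Tau in WT and 840, 1138 and 1230 after PBS in KO. All male KO PBS values were below those of male WT PBS. Male KO Tau libraries held 2612, 1173 and 1496 CPM, female WT Tau 1927 and 1518, and female KO Tau 2658, 1869 and 2133. Group means ran from 1070 ± 204 CPM in male KO PBS to 2220 ± 402 in female KO Tau (SD), and every neighbour in that order overlapped the next.

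Rian varied least of the 8, with a ratio of 1.81 between its highest and lowest library against 2.40 to 4.81 for the others. It stood at 464, 390 and 421 CPM in male WT PBS, 419, 376 and 392 in male WT Tau, 294, 351 and 343 in KO males given PBS and 392, 366 and 345 in KO males given Tau. The male KO PBS values did not overlap those of male WT PBS. Female WT Tau libraries held 533 and 357 CPM and female KO Tau 474, 441 and 522. In 711 it was 1.10 times the mean of the other 2 male KO Tau libraries, and that library ranked 5 of the 12 males.

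Mirg, the last RNA of the domain, was measured with 83 to 228 reads per library. It stood at 12.5, 7.28 and 7.82 CPM in male WT PBS, 6.50, 5.37 and 7.38 in male WT Tau, 4.36, 7.38 and 6.50 in KO males given PBS and 9.52, 5.84 and 8.37 in KO males given Tau. Female WT Tau libraries held 8.63 and 5.83 CPM and female KO Tau 7.33, 5.67 and 8.65. Its highest value was that of 791, and every group overlapped its neighbour in the order of means.

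Miat stood at 453, 286 and 311 CPM in male WT PBS, 247, 253 and 312 in WT males given Tau, and 214, 214 and 235 in KO males given PBS. Male KO Tau libraries held 666, 182 and 280 CPM, a wider spread than in the other groups. Female WT Tau libraries held 363 and 344 CPM and female KO Tau 538, 447 and 445, without overlap. In 711 the level was 2.88 times the mean of the other 2 male KO Tau libraries, the largest such ratio of the 8 RNAs.

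Snhg11 stood at 1308, 819 and 870 CPM in male WT PBS, 843, 751 and 883 in WT males given Tau, and 468, 755 and 641 in KO males given PBS. Male KO Tau libraries held 1372, 615 and 838 CPM, female WT Tau 1045 and 917, and female KO Tau 1670, 1249 and 1263. As for Miat, all female KO Tau values were above both female WT Tau values, and all male KO PBS values were below those of male WT PBS.

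Kcnq1ot1, with 140 to 433 reads per library, stood at 12.7, 7.23 and 8.65 CPM in male WT PBS, 10.5, 8.77 and 9.65 in WT males given Tau, and 8.52, 10.2 and 8.28 in KO males given PBS. These 3 groups were close, with means of 8.99 to 9.64 CPM. Male KO Tau libraries held 18.4, 12.8 and 13.9 CPM, all of them above every library of those groups. Female WT Tau libraries held 18.6 and 14.5 CPM and female KO Tau 21.6, 14.0 and 26.9. It was the only member whose male KO Tau values did not overlap male WT Tau or male KO PBS. How many of all genes separate in this way was not counted. Against male WT PBS the gap was small, with 12.77 CPM in 712 (245 reads) and 12.71 CPM in 791 (232 reads).

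The effect of Tau in WT males was tested by edgeR (quasi-likelihood F-test), adjusted over all genes to a false discovery rate (FDR). None of the 8 RNAs was called (0 members, with 0 at an unadjusted p under 0.05), beside 0% of the 15098 genes tested (281 genes at an unadjusted p under 0.05). No member was called by DESeq2 or voom (0 each). Mirg had the smallest p, with a log2 fold change of -0.53 (SE 0.26, FDR 1.00), followed by Rian at -0.12 (SE 0.10, FDR 1.00). The median over the 8 was -0.20, with 3 of 8 higher, beside -0.01 over all genes.

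The effect of the knockout without tau was tested between the male PBS groups. Of the 8 members 0 were called by edgeR, and background was 0.00662% of genes (1 gene, Acss2, with 667 at an unadjusted p under 0.05). Rian (log2 fold change -0.32, SE 0.10, FDR 0.999), Snhg11 (-0.63, SE 0.28, FDR 0.999) and Meg3 (-0.61, SE 0.28) were the 3 members with an unadjusted p under 0.05. DESeq2 and voom called 0. The median over the 8 was -0.43, with 1 of 8 higher, beside 0.01 over all genes, so the values of Meg3, Rian, Mirg, Miat and Snhg11 were at -0.32 to -0.63 and those of Malat1 (0.06), Neat1 (-0.08) and Kcnq1ot1 (-0.03) near 0. Markers of other tissue parts moved in the same comparison, though 0 were called. All 9 striatum markers (median 0.96), 11 of 11 oligodendrocyte markers (0.40) and 11 of 11 choroid plexus markers (0.71) were on the higher side. Striatum markers summed to 788 CPM in library 752, against 203 and 214 CPM in the other male KO PBS libraries and 216 to 232 CPM in male WT PBS. Dentate granule cell markers (8 genes) summed to 614 CPM in 751 and 147 CPM in 752, the highest and the lowest of all 17 libraries. Their part in the values of the 8 RNAs was not tested. The same WT PBS libraries, with 791 the highest, entered this and the preceding comparison.

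Tau and knockout together were tested by setting KO males given Tau against WT males given PBS. With edgeR 0 of 8 members were called, beside 0.00662% of all genes, and 2 members had an unadjusted p under 0.05. These were Kcnq1ot1 (log2 fold change 0.67, SE 0.20, FDR 0.783) and Malat1 (0.53, SE 0.23, FDR 0.783), which without 711 were at 0.49 (SE 0.20, FDR 0.442) and 0.14 (SE 0.12, FDR 0.671). The median over the 8 was 0.09 (5 of 8 higher), and -0.30 without 711 (2 of 8 higher). Male KO Tau against male WT Tau also gave 0 calls, beside 0.00662%, with Kcnq1ot1 at 0.66 (SE 0.20, FDR 0.927) as the only member at an unadjusted p under 0.05 and Malat1 next at 0.33 (SE 0.23, FDR 0.927). The difference of Malat1 rested on 711. Without that library it was -0.06 (SE 0.12, FDR 0.829), whereas that of Kcnq1ot1 was 0.49 (SE 0.20, FDR 0.352). Against male WT Tau the median over the 8 was 0.33 (7 of 8 higher), and -0.10 without 711 (2 of 8 higher). How many genes passed in these 2 comparisons depended on 711 with DESeq2. Fitted to the groups compared, it called 0.163% of 14762 genes against male WT PBS and 0.237% of 13951 against male WT Tau. Without that library it called 7.19% of 14367 and 9.61% of 14428 genes, with 0 members in each of these fits. The edgeR fit without 711 kept the other male groups as well, and called 1 gene in each comparison.

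Male KO Tau against male KO PBS gave 0 calls among the 8, beside 0% of genes (1201 of 15098 at an unadjusted p under 0.05). All 8 values were above 0, with a median of 0.59, but this median was 0.13 without 711 (7 of 8 higher), 0.06 with the ribosomal protein score as a covariate (5 of 8 higher) and 0.27 with voom (8 of 8 higher). Kcnq1ot1 (log2 fold change 0.70, SE 0.20, FDR 0.550) and Meg3 (0.68, SE 0.28, FDR 0.590) were the 2 members with an unadjusted p under 0.05. Without 711, Kcnq1ot1 was at 0.52 (SE 0.20, FDR 0.398), Meg3 at 0.27 (SE 0.21, FDR 0.635), Miat at 0.01 and Neat1 at -0.00. The interaction of genotype and treatment in males gave 0 calls, beside 0% of genes (631 of 15098 at an unadjusted p under 0.05). Meg3 had an interaction term of 1.00 (SE 0.39, FDR 0.996) and Kcnq1ot1 of 0.69 (SE 0.29, FDR 0.996), and with Mirg (0.87, SE 0.37) they made up the 3 members with an unadjusted p under 0.05. Without 711 Meg3 was at 0.59 (SE 0.28, FDR 0.576), and the median over the 8 was 0.43 (6 of 8 higher) in place of 0.77 (8 of 8). DESeq2 and voom called 0 members in each of these comparisons of males.

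In females the genotype could be compared under Tau only. edgeR called 0 of 8 members, beside 0.00649% of the 15419 genes tested. On the same 11 Tau libraries DESeq2 called 0 members and so did voom. All 8 values were above 0, with a median of 0.40 beside -0.01 over all genes. The median was 0.14 with length and GC offsets and 0.26 without library 341, with 6 of 8 higher in both. With the offsets Kcnq1ot1 was at -0.13 in place of 0.38, and Neat1 at 0.09 in place of 0.35. Of the cell markers, 0 of 11 for oligodendrocytes (median -0.46), 0 of 8 for dentate granule cells (-0.41) and 6 of 6 for CA1 pyramidal cells (0.42) were on the higher side in KO, with 0 called, and their part in these values was not tested. Malat1 had the smallest p (log2 fold change 0.69, SE 0.26, FDR 0.997) and was the only member at an unadjusted p under 0.05, followed by Snhg11 (0.57, SE 0.29, FDR 0.997). With DESeq2 on the 5 female libraries alone, Malat1 passed (0.71, FDR 0.00419), beside 0.0265% of 15078 genes, whereas edgeR on those libraries gave 0.70 (FDR 0.998) and called 0 members. Whether the knockout acted differently in the sexes was tested by the interaction under Tau, which gave 0 members, also at an unadjusted p under 0.05, beside 0% of genes (454 at an unadjusted p under 0.05). Rian was at 0.24 (SE 0.21, FDR 0.978) and Malat1 at 0.36 (SE 0.35, FDR 0.978). Without 711 these were 0.31 (SE 0.20, FDR 0.549) and 0.76 (SE 0.18, FDR 0.227), and the median over the 8 went from 0.09 to 0.58.

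Over all 17 libraries, with sex and treatment as 3 strata, KO against WT gave 0 calls among the 8, with DESeq2 and voom also at 0, beside 0.00658% of 15189 genes. Malat1 was at 0.33 (SE 0.13, FDR 0.981) and Kcnq1ot1 at 0.34 (SE 0.15, FDR 0.981), and both had an unadjusted p under 0.05. The remaining values were 0.15 (SE 0.21) for Neat1, 0.04 (SE 0.19) for Meg3, -0.10 (SE 0.08) for Rian, -0.07 (SE 0.17) for Mirg, 0.10 (SE 0.23) for Miat and 0.01 (SE 0.19) for Snhg11. Each of these 6 lay within 2 SE of 0. Without 711, Malat1 was at 0.21 (SE 0.11) and Kcnq1ot1 at 0.26 (SE 0.14), and Neat1, Meg3, Miat and Snhg11 changed sign.

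**Figure D2:**
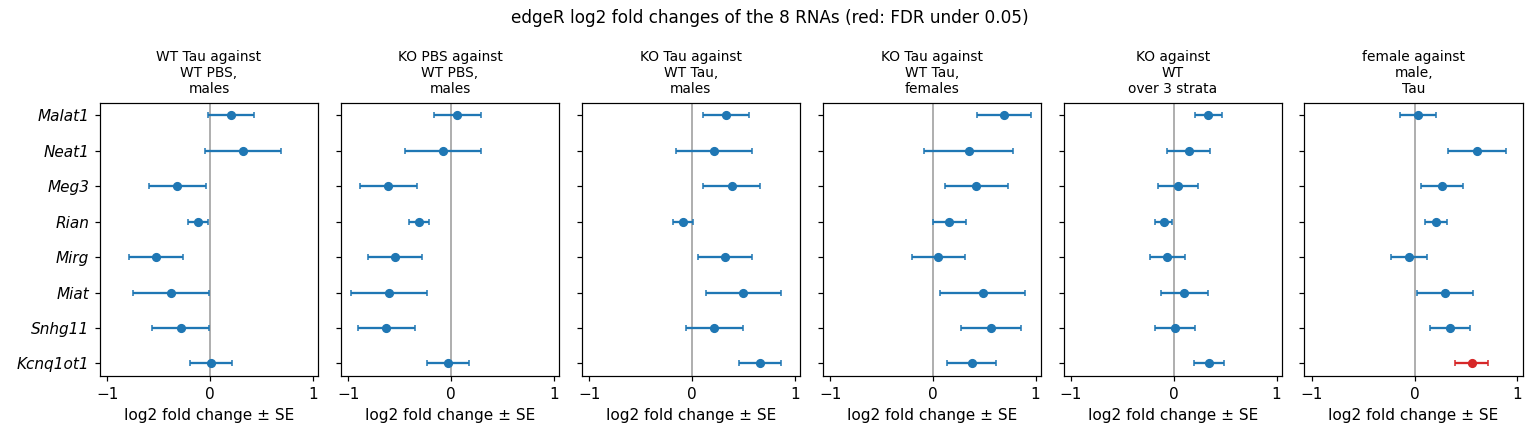
Log2 fold change ± SE (x axis) of the 8 RNAs (y axis) in 6 of the comparisons, from edgeR; red marks an FDR under 0.05. In the comparison of female with male Tau libraries Kcnq1ot1, at 0.55, is the only red point of the 6 panels.

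Female and male Tau libraries were compared as an average over the genotypes. Of the 8 members 1 was called, beside a background of 23.8% of 15419 genes (1757 higher and 1917 lower in females), so the share of members called was below that of all genes. Kcnq1ot1 was higher in females by 0.55 on the log2 scale (SE 0.16, FDR 0.0304). Neat1 came next at 0.61 (SE 0.29, FDR 0.138), and the median over the 8 was 0.28, with 7 of 8 higher, beside -0.01 over all genes.

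Library 711 decided how many members passed. Without it 6 were called, beside 40.7% of 15450 genes. These were Neat1 at 0.93 (SE 0.21, FDR 0.00570), Miat at 0.67 (SE 0.14, FDR 0.00361), Kcnq1ot1 at 0.66 (SE 0.15, FDR 0.00642), Snhg11 at 0.55 (SE 0.13, FDR 0.00775), Meg3 at 0.49 (SE 0.13, FDR 0.0153) and Malat1 at 0.25 (SE 0.09, FDR 0.0458). Rian (0.25, FDR 0.0694) and Mirg (0.04, FDR 0.852) did not pass.

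The call of Kcnq1ot1 was itself unsteady, since it was lost when any 1 of 8 of the 11 Tau libraries was left out (314, 325, 331, 712, 713, 771, 772 or 773), with an FDR of 0.0508 to 0.131. Voom with quality weights called 4 members, beside 40.1% of genes. With the ribosomal protein score of each library as a covariate, 0 members were called, Kcnq1ot1 was at 0.29 (FDR 0.403), and the background itself fell to 0.681% of genes. With offsets for gene length and GC content 0 members were called too, beside 17.1% of genes, and Kcnq1ot1 was at 0.27 (FDR 0.246). Ribosomal protein messages (17 of 77 tested called higher, 0 lower), astrocyte markers (6 of 9 higher), microglial markers (5 of 9 higher), endothelial markers (6 of 8 higher) and histone messages (6 of 9 higher) differed in the same comparison. Neuron markers were mostly lower (5 of 10 called lower and 1 higher). The share of these differences in those of the 8 RNAs was not tested beyond the covariate and the offsets. With no female PBS group, and without a batch in the labels, sex and anything else that set the female libraries apart cannot be told apart.

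The protein partners and the neighbours of the 8 RNAs were examined with the same test. Their counts stand beside the 23.8% of all genes called, of which the lower ones were slightly more numerous, and that share fell to 0.681% with the ribosomal protein covariate, so the counts do not set these lists apart. Of 21 paraspeckle proteins, which bind Neat1, 1 was called higher (Srsf10, log2 fold change 0.41, FDR 0.0290) and 6 lower in females. The lower ones included Smarca4 (-0.48, SE 0.09, FDR 0.00932), Dazap1 (-0.35, SE 0.08, FDR 0.0129) and Nono (-0.26, FDR 0.0299), a core paraspeckle protein. Of 20 nuclear speckle proteins 2 were called higher, the splicing factors Srsf1 (0.29, FDR 0.0389) and Srsf7 (0.34, FDR 0.0411), and 4 lower, with U2af2 (-0.38, SE 0.08, FDR 0.0131) and Rnps1 (-0.34, SE 0.08, FDR 0.0166) at the smallest p. Of 9 tested genes beside Malat1 and Neat1 on chromosome 19, 0 were called higher and 2 lower, with Map3k11 at -0.36 (FDR 0.0242).

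In the Kcnq1 domain 9 of 12 genes could be tested, and 2 were called lower in females and 0 higher. Cdkn1c, a growth inhibitor that Kcnq1ot1 silences on the paternal copy, was lower by -1.32 (SE 0.31, FDR 0.0164), and Th, which makes the precursor of dopamine, by -1.002 (SE 0.29, FDR 0.0311). Choroid plexus markers (11 genes) summed to 226 to 5377 CPM in the 11 males and to 295 to 792 CPM in the females, and their part in the value of Cdkn1c was not tested. Of 4 other genes of the Dlk1-Dio3 domain, 3 could be tested and 0 were called. Dlk1 was at 0.88 (SE 0.34, FDR 0.0819) and Dio3 at -0.90 (SE 0.52, FDR 0.217).

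Among 20 tested host genes of small RNAs, 16 were higher in females and 2 were called, Snhg14 (0.91, SE 0.20, FDR 0.0135) and Snhg18 (0.69, SE 0.23, FDR 0.0466). Among 16 other long noncoding RNAs of brain, 2 were called higher, Jpx (0.64, SE 0.16, FDR 0.0188) and 1700020I14Rik (0.44, SE 0.13, FDR 0.0322), and 1 lower, the imprinted Peg13 (-0.46, FDR 0.0488). In KO against WT over 3 strata, 0 genes of any of these lists were called. There the paraspeckle list had a median of -0.05 with 5 of 21 higher, and the speckle list of -0.05 with 7 of 20 higher, beside 0.00 over all genes.

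Many of the 8 RNAs varied together from library to library within groups. Over the 28 pairs, the Pearson correlation of deviations from the group means of log2 CPM (n = 17) was positive in all 28, with a median of 0.67 and a range of 0.12 to 0.95. By an exact permutation test of libraries within groups, 13 of the 28 had an adjusted p under 0.05, and 10 with Spearman's rho. The share among all pairs of genes was not counted, so these counts do not set the 8 RNAs apart. Each member also had r above 0.8 with 50 (Mirg) to 233 (Miat) of 15181 other genes, with library 711 included. Without the 2 libraries farthest from the median of the second RNA of a pair, r ranged from 0.0058 to 0.87. Meg3 and Snhg11 were the closest pair, with r = 0.95 and rho = 0.91 (two-sided exact permutation p = 0.00032 for both, adjusted p = 0.0072 and 0.0090). They are on different chromosomes. Without the 2 libraries farthest from the median of Snhg11 (711 and 791), r was 0.87. These pairs were looked at after the levels had been seen.

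**Figure D3:**
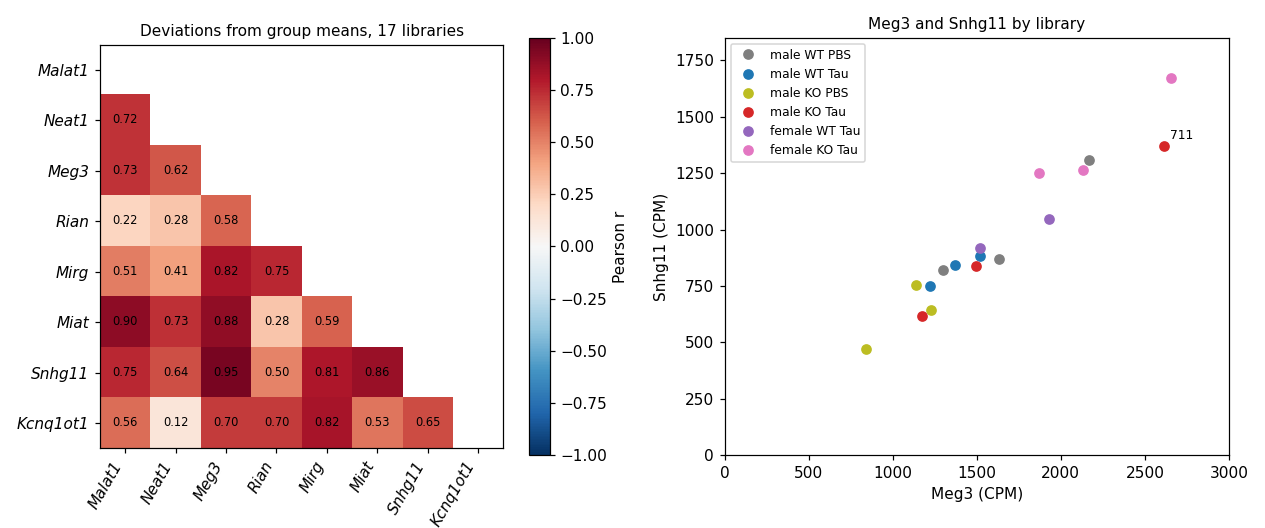
Left, Pearson r of every pair of RNAs over deviations from group means of log2 CPM in 17 libraries. Right, CPM of Snhg11 (y axis) against CPM of Meg3 (x axis), 1 point per library coloured by group. The points of all 6 groups lie along 1 band, which runs from male KO PBS library 751 (840 and 468 CPM) to female KO Tau library 314 (2658 and 1670 CPM).

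Several pairs with Malat1 or Neat1 were weaker without library 711. Malat1 and Miat gave r = 0.90 (exact permutation p = 0.054, adjusted 0.089), which was 0.59 without 711 and 0.43 without 711 and 712. Malat1 and Neat1, the chromosomal neighbours, gave r = 0.72 (exact permutation p = 0.11, adjusted 0.14), which was 0.33 without 711 and 0.12 without 711 and 712. Malat1 and Mirg, at 0.51, had r = 0.52 without 711 (exact permutation p = 0.090 over all 17 libraries). The pairs within the Dlk1-Dio3 domain held without the 2 farthest libraries. Meg3 and Mirg gave r = 0.82 (exact permutation p = 0.0018, adjusted 0.0093) and 0.72 without 751 and 712, and Rian and Mirg 0.75 (exact permutation p = 0.0041, adjusted 0.014) and 0.80. Meg3 and Rian gave 0.58 (exact permutation p = 0.010, adjusted 0.029) and 0.67 without 331 and 341. Within the 12 males alone these 3 values were 0.86, 0.77 and 0.75.

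The genes whose deviations were most like those of each member are given as a description, over 17 libraries and 15181 other genes. The 8 members themselves were left out, so Meg3 and Snhg11 (r = 0.95) do not appear beside each other. Miat was closest to Firre (r = 0.97), another long noncoding RNA retained in the nucleus, then to Akap8 (0.96) and Rbm33 (0.95). Meg3 was closest to Mir124a-1hg (0.94), the host of a neuronal microRNA, which was also second for Snhg11 (0.95) after Tbce (0.96). For Malat1 the closest were Nvl (0.95), Akap8 (0.95) and Eml5 (0.94), and for Neat1 Daam2 (0.96), Myh14 (0.95) and Kif1c (0.95). Those of Rian, Mirg and Kcnq1ot1 (Il18 at 0.92, Clcn1 at 0.92 and Rufy2 at 0.91) were less close. Genes with r above 0.9 numbered 41 for Miat, 30 for Neat1 and 18 for Malat1, and 2 to 9 for the others.

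Relations to the makeup of the tissue were examined with 3 scores, the mean log2 CPM of ribosomal proteins, of dentate granule cell markers and of oligodendrocyte markers. None of the 24 relations passed (0 with Pearson's r and 0 with Spearman's rho at an adjusted p under 0.05, by exact permutation). The nearest was Neat1 with oligodendrocyte markers, with r = 0.83 and rho = 0.83 (two-sided exact permutation p = 0.0022 and 0.0041, adjusted p = 0.052 and 0.099, n = 17). Without 711 and 792 its r was 0.84, and within the 12 males 0.81. On CPM scaled by TMM factors it passed (r = 0.83, adjusted p = 0.029 by exact permutation). Rian with ribosomal proteins gave r = 0.67 (exact permutation p = 0.075, adjusted 0.53), and Malat1 with dentate granule markers r = 0.50 (exact permutation p = 0.043, adjusted 0.51). The r of Malat1 with dentate granule markers was 0.25 without 711 and 0.83 without 751 and 752.

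Ratios of 2 RNAs within a library do not depend on its depth, and 4 were tested. Neat1 per Malat1 was at a median of 0.290 over the 17 libraries, from 0.188 in male KO Tau library 712 to 0.614 in female WT Tau library 331. The 2 female WT Tau libraries held 0.614 and 0.373, above all 12 males, and female KO Tau 0.331, 0.539 and 0.284. KO against WT within strata gave a log2 difference of -0.26 (two-sided exact permutation p = 0.16, adjusted over 8 tests 0.65).

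Rian per Meg3 was at a median of 0.258 and was lowest in 711, at 0.150. Its log2 difference was -0.11 for KO against WT and -0.16 for Tau against PBS in males (exact permutation p = 0.48 and 0.54, adjusted 0.70 for both). Mirg per Meg3 was at a median of 0.00479. In males it was lower with Tau, with a log2 difference of -0.24 (exact permutation p = 0.055, adjusted 0.44), and the values of the arms overlapped. Kcnq1ot1 per Kcnq1 was at a median of 40.8, but Kcnq1 had 1 to 16 reads per library, and the ratio ranged from 10.4 to 232. Its log2 difference was 0.29 for KO against WT (exact permutation p = 0.62) and -0.03 for Tau against PBS (exact permutation p = 0.93). The 8 ratio tests thus gave 0 results at an adjusted p under 0.05.

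**Figure D4:**
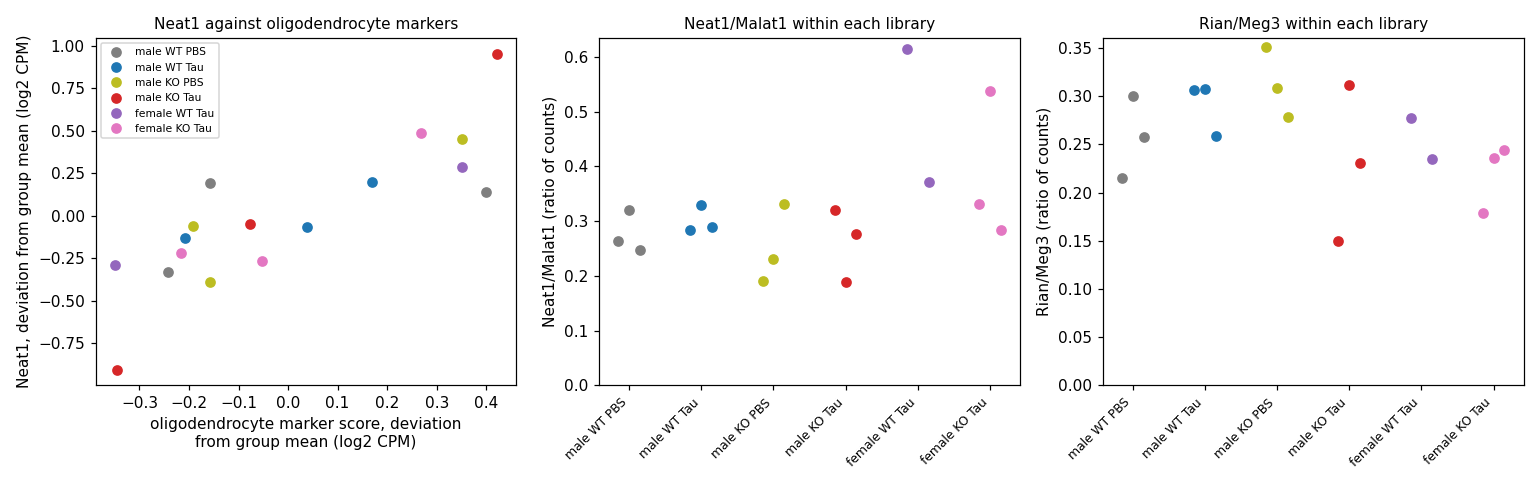
Left, deviation of Neat1 (y axis) and of the oligodendrocyte marker score (x axis) from the group mean, both in log2 CPM, 1 point per library. Middle and right, the ratio of Neat1 to Malat1 counts and of Rian to Meg3 counts in each library by group. Neat1 follows the marker score with r = 0.83, and Neat1 per Malat1 reaches 0.614 in a female WT Tau library.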

How the data were processed

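Poly(A) RNA of 17 libraries was sequenced, and the deposited values are raw read counts per gene symbol that the authors made from alignments to mm10 (GRCm38). The submitters' processing notes list STAR 2.5.2, SAMtools 1.1, HTSeq 0.9.1 and DESeq2, and the methods describe counting over exons in reverse-stranded mode. The annotation release behind the counts is not given in the sources used here. The table holds 0 of the 13 mitochondrial messages. All p-values measure the spread between the samples of a group, which the labels call biological replicates.

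The test was edgeR's quasi-likelihood F-test (edgeR 4.0.16 in R 4.3.3) with Benjamini-Hochberg adjustment over all genes (FDR threshold 0.05). TMM factors and filterByExpr (minimum count 10, minimum total 15) were used. Comparisons of males were fitted on the 12 male libraries, those under Tau on 11, and the genotype over strata of sex and treatment on 17. Group membership came from the labels. Depth limits cover counting error only. Relations and ratios used exact permutations within groups or strata (numpy 2.4.6, pandas 2.3.3, scipy 1.17.1 in Python 3.11.15). The relations were computed on log2 CPM with a prior count of 2, and the ratios on raw counts with nothing added. Transcripts and positions came from GENCODE M21 (GRCm38), which matched 98.5% of 24498 symbols, 518 of them by an older name. Of the tests, the edgeR fit and the permutation test of relations were tried on simulated data.

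The members and the gene lists were chosen with earlier results of these data known. For each comparison the 2 members with the smallest unadjusted p were named, all 8 in the comparison over strata, and from each list up to 2 genes with the smallest p and any that passed. Other members named beside a count were chosen after their values were seen. Alternatives were DESeq2 1.42.0, voom with quality weights (limma 3.58.1), RLE factors, no filter, other sets of libraries, a ribosomal protein covariate, offsets that remove trends on GC content and length (splines, 5 degrees of freedom), each library left out in turn, 1 added count for ratios, TMM-scaled CPM and Spearman's rho. Some items are not reported here.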

Additional observations from a re-analysis of the deposited data

How the results depend on the processing

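Of the counts of members called, those of 8 comparisons did not move under any alternative. In female against male Tau libraries the count of 1 became 4 with voom, and 0 with the ribosomal protein covariate or with length and GC offsets. It was 0 to 6 when 1 library was left out, 6 without 711. In female KO Tau against female WT Tau, DESeq2 on the 5 libraries gave 1 call. With TMM-scaled CPM 1 relation passed, in place of 0. The log2 fold change of Malat1 in male KO Tau against male WT Tau was -0.063 without 711, in edgeR as well as in DESeq2 on the groups compared, and at most 0.55 (without 712).

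In KO against WT over 3 strata, voom gave -0.055 for Meg3, -0.10 for Miat and -0.12 for Snhg11, against values above 0, and the offsets gave -0.052 for Meg3. Leaving out 1 library gave -0.049 to 0.25 for Neat1, -0.12 to 0.15 for Meg3, -0.14 to 0.055 for Mirg, -0.16 to 0.21 for Miat and -0.13 to 0.12 for Snhg11. None of these passed in any setting. The difference of Kcnq1ot1 per Kcnq1 with treatment was 0.088 with 1 count added and -0.44 to 0.68 with 1 library left out (0.68 without 791, where Kcnq1 had 1 read). Mirg with dentate granule markers was at r = -0.020 on TMM-scaled CPM. By Spearman's rho Rian with dentate granule markers was at 0.049 and Kcnq1ot1 with oligodendrocyte markers at 0.086. The causes of these changes were not tested.

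Where a female WT Tau library was left out, the remaining 1 was taken to vary as the other groups do. Mirg and Kcnq1ot1 rest on 83 to 433 reads per library. No paired analysis was possible because the replicate numbers differ between the groups.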
